A study of Homo sapiens with 3 samples.

Results

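The genes described here are the subunits of the constitutive proteasome, its activators and its assembly chaperones. They were chosen by symbol: PSMA, PSMB, PSMC, PSMD, PSME or PSMG followed by digits alone, and POMP, without PSMB8, PSMB9 and PSMB10 and without pseudogenes. This gave 45 genes of the 43913 gene symbols in the 3 count files, and all 45 were listed in each file. Of these, 8 belong to the alpha ring of the core, 8 to the beta ring of the core, 9 to the base, 8 to the lid, 4 are activators, 5 are chaperones of the core and 3 are chaperones of the base.

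The proteasome is the barrel-shaped protease that degrades proteins tagged with ubiquitin. Its core is built of outer alpha rings, which gate the entrance, and inner beta rings, which hold the cutting sites; a cap made of an ATPase base and a lid recognises the tagged protein, removes its ubiquitin and threads it in. Myeloma cells make large amounts of antibody protein and are known for their sensitivity to proteasome inhibitors, which bind the beta ring, and degradation of the NF-κB inhibitor by the proteasome is a step of NF-κB activation.

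Single cells were profiled by Drop-seq, in which each cell shares a droplet with a barcoded bead and each captured RNA molecule carries a unique molecular identifier (UMI). The 3 libraries cover 1 condition each. The first is a monoculture of MM.1S, an established human line derived from multiple myeloma, the second a monoculture of HS-5, an established human line of stromal cells from bone marrow, and the third a coculture in which the lines had been together for 4 h. No agent was added to any of them, and each line was grown in its own medium, RPMI for MM.1S and DMEM for HS-5. Each condition is 1 culture of established lines, so differences lack a replicate check and are described without tests or p-values.

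Of the deposited barcodes, 3947 MM.1S monoculture cells, 3732 HS-5 monoculture cells and 3856 coculture cells had at least 200 detected genes and were kept. The libraries held between 3981392 and 10433182 UMIs, with median depths of 2183, 949 and 789 UMIs per barcode, and each pair of libraries shared 39 to 76 barcodes. The coculture's cells were split by 82 genes at least 50-fold higher in MM.1S monoculture and 231 genes at least 50-fold higher in HS-5 monoculture, none of them a proteasome gene. This put 1640 cells (42.5%) with MM.1S and 2106 (54.6%) with HS-5; 108 cells (2.80%) carried UMIs of both lines and were left out as doublets, and 2 had too few line-specific UMIs. Of 10 plasma cell markers 8 were higher in MM.1S monoculture, SDC1 was higher in HS-5 (38.1 against 135 CPM) and CD79A was at or near 0 in all groups. Of 10 stromal markers 7 were clearly higher in HS-5, and FN1 went the other way, at 810 CPM in MM.1S against 252 in HS-5 monoculture. COL6A3 did too at low levels, with 2.88 CPM in MM.1S against 0.977 in HS-5 monoculture. COL3A1 was low in both monocultures, at 2.78 CPM in MM.1S and 4.88 in HS-5. The 8 listed markers of other blood and vessel cells summed to 7.25 to 20.2 CPM, with HBA1 highest, at 13.1 CPM in MM.1S monoculture. Doublets of cells from the same line remain in the data.

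Levels are UMIs summed over the cells of a group and scaled to counts per 1000000 UMIs (CPM), and their 95% intervals (exact Poisson) cover counting error only. The groups, in the order used throughout, are MM.1S monoculture, cocultured MM.1S cells, HS-5 monoculture and cocultured HS-5 cells. A difference between groups is a log2 ratio with a pseudocount of 1 CPM; its 95% interval comes from the counts alone, without the pseudocount. A gene was compared where its mean over the pair of groups was at least 10 CPM, and is called higher or lower where it passed 1.5-fold (0.585 on the log2 scale). Levels are compared between groups for 1 gene and not between genes. A sum over a population does not tell apart more RNA per cell from more cells that hold the RNA, so levels per cell are given separately at the end.

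The proteasome genes as a whole took a larger share of the RNA in HS-5 than in MM.1S, and a larger share in the coculture than in the monoculture of either line. Their summed level was 6787 CPM (6737 to 6837; 70808 UMIs) in MM.1S monoculture, 8710 CPM (8552 to 8871; 11559 UMIs) in cocultured MM.1S cells, 12210 CPM (12120 to 12300; 74986 UMIs) in HS-5 monoculture and 14370 CPM (14220 to 14520; 35674 UMIs) in cocultured HS-5 cells. The 4 groups do not overlap within counting error. As shares of all UMIs these are 0.679, 0.871, 1.22 and 1.44%. The share of mitochondrial UMIs ran in the opposite order over the groups, at 6.82, 4.05, 2.79 and 2.23%, and its part in the result was not tested.

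**Figure D1:**
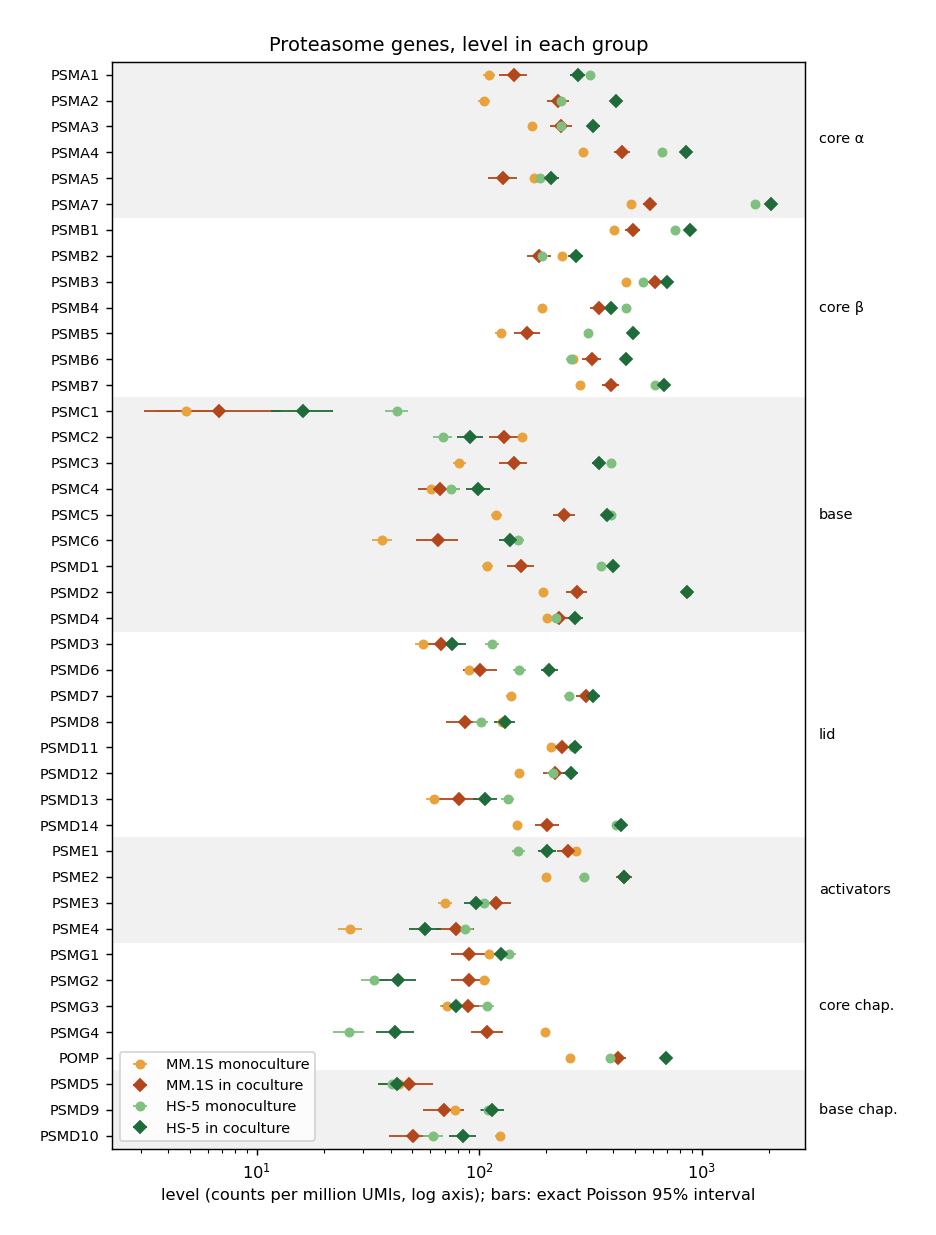
The horizontal axis is the level in CPM on a log scale, each row is a gene, and rows are grouped by subcomplex. Circles are monocultures and diamonds coculture cells, orange and brown for MM.1S and green for HS-5, with exact Poisson 95% intervals. PSMA7 runs from 481 to 2039 CPM with both HS-5 groups above both MM.1S groups, and PSMG4 and PSMG2 show the reverse order. PSMA6, PSMA8 and PSMB11 lie under the minimum and are not drawn.

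The lines were compared first. Between the monocultures, 22 of the 42 genes that could be compared were higher in HS-5, where 49.5% of all 8734 genes tested were, and 5 were lower, where 21.8% of all genes were. Their median log2 ratio was 0.59, beside 0.56 for all genes, a difference of 0.02 before rounding. With the trend on transcript length removed, that difference was 0.58 and 29 were higher against 49.6%. Within the coculture library, where both lines went through 1 preparation, 20 of 42 were higher in HS-5 against a background of 37.1%, and 2 were lower against 25.2%. There the median was 0.56 beside 0.17 for all 8889 genes. The median of all genes depends on the scaling, so list medians are also given relative to it: 0.02 between the monocultures and 0.39 within the coculture.

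Both comparisons of the lines use separate libraries, so the order of the genes in one can be set beside the order in the other. Of 42 genes, 35 (83.3%) had the same sign, beside 75.4% of 8315 genes in all, and Spearman's rho was 0.633 beside 0.733 for all genes. These are descriptions over genes, which share the libraries, their depth and the assignment of cells. The values for all genes include the line-specific genes that assigned the cells, and proteasome genes could not be among those. The 2 sets are therefore not fully alike. In both comparisons 16 were higher in HS-5 by at least 1.5-fold (38.1%, beside 31.2% of all genes) and 2, PSMG2 and PSMG4, were lower (4.76%, beside 13.4%). PSMD10 alone passed 1.5-fold in opposite directions, as 3.97% of all genes did. With the trend on transcript length removed, its monoculture ratio was -0.14 in place of -0.99, short of 1.5-fold.

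**Figure D2:**
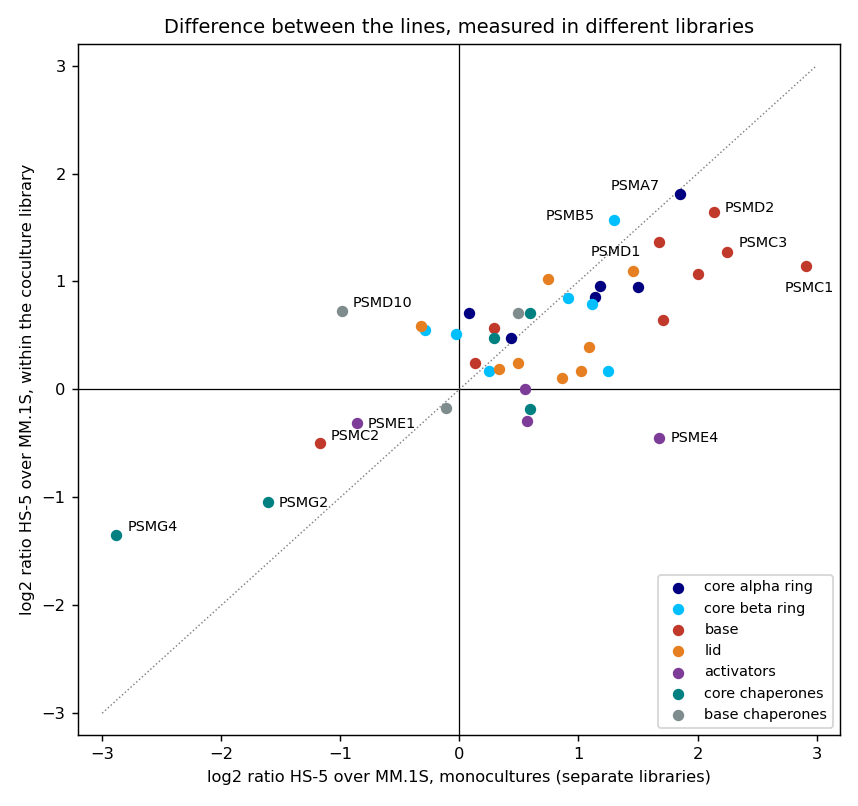
Each point is a gene; the horizontal axis is its log2 ratio of HS-5 over MM.1S between the monocultures and the vertical axis the same ratio within the coculture library, coloured by subcomplex, with equality as a dotted line. Most base (red) and core genes (blue) lie at the upper right, with PSMA7 at 1.85 and 1.81. The chaperones PSMG4, PSMG2 and PSMD5 lie at the lower left, as do the base gene PSMC2 and the activator PSME1. PSMD10 and PSME4 are off the main direction.

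The ratio between the lines was unequal over the subcomplexes. The summed alpha ring was 2.51-fold higher in HS-5 between the monocultures and 2.35-fold within the coculture, the base 2.65- and 1.98-fold, the lid 1.67- and 1.40-fold and the beta ring 1.6- and 1.54-fold. The activators were at 1.12- and 0.899-fold, the chaperones of the core at 0.929- and 1.22-fold and those of the base at 0.863- and 1.44-fold. The median log2 ratio over the genes of a subcomplex, relative to that of all genes, was 1.14 for the base, 0.59 for the alpha ring, 0.35 for the beta ring and 0.24 for the lid between the monocultures. Within the coculture these were 0.90, 0.74, 0.37 and 0.14. For the activators the relative medians were below 0 in both comparisons, at -0.0032 and -0.47. For the chaperones of the core they were -0.27 and -0.35, and for those of the base -0.67 and 0.54.

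Transcription of proteasome genes is known to be raised by NFE2L1 and NFE2L2, which bind the antioxidant response element, and NF-Y binds CCAAT boxes of many promoters. Promoter windows of 300 bases (250 before and 50 after the RefSeq start, GRCh38.p14) were given for 39 of the 45 genes. The letters TGACNNNGC, searched on both strands, occurred in 14 of these genes (35.9%). They occurred in 16.1% of all 27305 genes with a window and in 19.9% of the 6829 that averaged 10 CPM or more. A gene with several windows counts where any of them matched. The letters CCAAT on either strand occurred in 19 (48.7%), beside 39.7 and 43.9%. A match is a description of letters, not a binding site. The TGACNNNGC matches upstream of the start are printed below for the genes that passed 1.5-fold in at least 1 comparison, with 25 bases on either side, on the gene's strand from 5′ to 3′, and with the match in capitals (its reverse complement where it lies on the other strand).
PSMA4 (chr15:78540635-78540693, plus strand): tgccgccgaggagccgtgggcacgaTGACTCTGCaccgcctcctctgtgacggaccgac
PSMC5 (chr17:63827639-63827697, plus strand, match on the other strand): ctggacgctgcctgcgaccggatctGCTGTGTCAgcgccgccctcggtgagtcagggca
PSMD3 (chr17:39980745-39980803, plus strand): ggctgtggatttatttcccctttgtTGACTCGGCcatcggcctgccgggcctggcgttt
PSMD9 (chr12:121888616-121888674, plus strand, match on the other strand): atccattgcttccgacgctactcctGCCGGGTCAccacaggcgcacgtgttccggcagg
PSMD9 (chr12:121888663-121888721, plus strand): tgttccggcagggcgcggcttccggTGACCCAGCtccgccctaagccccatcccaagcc
PSME1 (chr14:24136083-24136141, plus strand): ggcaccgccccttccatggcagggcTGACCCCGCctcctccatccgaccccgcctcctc
PSME2 (chr14:24146752-24146810, minus strand): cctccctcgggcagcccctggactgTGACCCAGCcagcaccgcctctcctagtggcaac
PSME4 (chr2:53970994-53971052, minus strand, match on the other strand): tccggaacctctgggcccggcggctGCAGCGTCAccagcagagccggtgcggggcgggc
PSMG2 (chr18:12658674-12658732, plus strand): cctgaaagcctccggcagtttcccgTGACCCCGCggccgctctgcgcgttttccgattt
The PSME4 match begins 34 bases before the start, the closest of these, and the match of PSME2 lies 175 bases before it. Genes with the letters and genes without them had median log2 ratios of 0.49 and 0.80 for HS-5 over MM.1S in monoculture, 0.20 and 0.71 within the coculture, 0.35 and 0.39 for coculture over monoculture in MM.1S, and 0.23 and 0.26 in HS-5.

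In the alpha ring, PSMA7 had the widest gap between the lines. It was counted at 481 CPM in MM.1S monoculture, 582 in cocultured MM.1S cells, 1734 in HS-5 monoculture and 2039 in cocultured HS-5 cells. Both HS-5 groups stood well above both MM.1S groups, with log2 ratios of 1.85 (1.8 to 1.9) between the monocultures and 1.81 (1.70 to 1.92) within the coculture. PSMA7 is an alpha ring subunit on chromosome 20 (62136735 to 62143440, minus strand, GENCODE release 29). The ring without it kept a log2 ratio of 0.93 (0.89 to 0.97) and 0.83 (0.75 to 0.91).

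The other alpha subunits form the same gate and ranged more narrowly. PSMA1 had 110, 142, 314 and 277 CPM in MM.1S monoculture, MM.1S in coculture, HS-5 monoculture and HS-5 in coculture, which is 1.5 and 0.95 on the log2 scale between the lines. PSMA4, whose promoter letters are given above, had 291, 436, 659 and 847 CPM in the same order, with differences of 1.18 and 0.96. PSMA2 had 105, 226, 232 and 412 CPM, with differences of 1.14 and 0.86. All 3 were higher in HS-5 in both libraries. PSMA5 had 177, 127, 187 and 210 CPM: the lines differed by 0.08 (-0.03 to 0.19) in monoculture and by 0.71 (0.47 to 0.98) within the coculture. PSMA3 passed 1.5-fold in no comparison, at 0.43 and 0.48 between the lines. PSMA8, a subunit known from the testis, had 4, 2, 4 and 2 UMIs. PSMA6 had 11, 0, 20 and 6 UMIs, and its 3 pseudogene symbols held 16, 5, 24 and 9. It also shares 919 exon bases with AL121594.1 on the same strand (1.53, 1.51, 2.6 and 0.403 CPM). Whether reads of PSMA6 were split or dropped among these genes was not tested, and no level is read from PSMA6. In cocultured MM.1S cells, 3 counts, the limit a count of 0 allows (1-sided, 95%), are worth 2.26 CPM.

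In the beta ring, the catalytic subunits did not behave alike. PSMB5, which carries the chymotrypsin-like site that proteasome inhibitors bind most strongly, had 125 CPM in MM.1S monoculture, 164 in cocultured MM.1S cells, 308 in HS-5 monoculture and 491 in cocultured HS-5 cells. Its log2 ratio of HS-5 over MM.1S was 1.30 (1.2 to 1.41) in monoculture and 1.57 (1.37 to 1.79) within the coculture. PSMB7, with the trypsin-like site, had 284, 390, 614 and 673 CPM and ratios of 1.11 and 0.79. PSMB6, with the caspase-like site, had 263, 320, 258 and 455 CPM: the monocultures overlapped, at -0.03 (-0.12 to 0.06), and the coculture cells differed by 0.51 (0.35 to 0.67). The 3 catalytic subunits together were 1.76-fold higher in HS-5 in monoculture and 1.85-fold within the coculture.

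Of the beta subunits without a cutting site, PSMB1 was higher in HS-5 in both libraries, with 403, 489, 758 and 885 CPM in the order above and log2 ratios of 0.91 and 0.85. PSMB4 had 191, 346, 457 and 388 CPM, so the lines were 1.25 apart in monoculture and 0.17 (0.01 to 0.33) within the coculture. PSMB2 and PSMB3 passed 1.5-fold in no comparison. The monocultures differed by -0.29 for PSMB2, lower in HS-5, and the coculture cells by 0.55. PSMB3 differed by 0.25 and 0.17. PSMB11, known from the thymus, had 1, 1, 3 and 1 UMIs. The immunoproteasome subunits PSMB8, PSMB9 and PSMB10, which replace the catalytic ones under interferon and are no members of the list, ran the other way between the lines: together they had 260 CPM in MM.1S monoculture, 375 in MM.1S in coculture, 136 in HS-5 monoculture and 222 in HS-5 in coculture. By gene, PSMB8 had 118, 121, 73.6 and 90.7 CPM, PSMB9 113, 173, 35.7 and 83.8, and PSMB10 29.4, 81.4, 27.2 and 48.0.

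The base had the largest summed ratio between the monocultures of the 7 subcomplexes. PSMD2, a scaffold of the base that receives ubiquitin-like domains, had 194 CPM in MM.1S monoculture, 274 in cocultured MM.1S cells, 858 in HS-5 monoculture and 856 in cocultured HS-5 cells. The HS-5 groups overlap and both are far above the MM.1S groups, by 2.14 (2.07 to 2.22) and 1.64 (1.48 to 1.81) on the log2 scale. PSMD1, the other large scaffold of the base, had 109, 154, 351 and 399 CPM and ratios of 1.68 and 1.37. PSMD4, a ubiquitin receptor, passed 1.5-fold in no comparison, at 0.13 and 0.24.

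The ATPases form a ring that unfolds the substrate, and they did not move as 1 block. PSMC3 had 81.3, 142, 391 and 344 CPM in MM.1S monoculture, MM.1S in coculture, HS-5 monoculture and HS-5 in coculture, with ratios between the lines of 2.25 (2.15 to 2.38) and 1.27 (1.04 to 1.51). PSMC6 had 36.4, 64.8, 149 and 137 CPM and ratios of 2.00 and 1.07. PSMC5 had 119, 240, 391 and 375 CPM and ratios of 1.71 and 0.64. These 3 ATPases were higher in HS-5 in both libraries, and for each the gap within the coculture was the smaller one. PSMC2 was the exception, with 155, 129, 68.4 and 90.7 CPM and ratios of -1.17 (-1.34 to -1.02) and -0.50 (-0.80 to -0.21), so it was lower in HS-5 in both, past 1.5-fold in the monocultures. PSMC4 stayed at 0.29 and 0.57. PSMC1 had 50, 9, 261 and 40 UMIs (4.79, 6.78, 42.5 and 16.1 CPM), while its 13 pseudogene symbols held 46, 8, 137 and 41 UMIs. Its ratios of 2.91 and 1.14 are therefore uncertain. PSMC5 shares 874 exon bases with FTSJ3 on the other strand (64.7, 170, 163 and 120 CPM), and whether counting used strand is not given in the sources used here.

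In the lid, PSMD14, the enzyme that cuts ubiquitin from the substrate, had 148 CPM in MM.1S monoculture, 201 in cocultured MM.1S cells, 410 in HS-5 monoculture and 432 in cocultured HS-5 cells. The HS-5 groups overlap in their intervals and lie above both MM.1S groups, by 1.46 (1.38 to 1.56) and 1.10 (0.91 to 1.30). PSMD7, its partner in the lid, had 138, 300, 252 and 324 CPM, so that the lines were 0.86 apart in monoculture and 0.11 (-0.06 to 0.29) within the coculture. PSMD6 had 89.9, 101, 151 and 206 CPM and ratios of 0.74 and 1.02.

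The remaining lid subunits are scaffold proteins. PSMD3 had 55.5, 67.1, 114 and 75.4 CPM and PSMD13 62.4, 80.6, 134 and 106 in the order above. For both the gap between the lines was past 1.5-fold in monoculture, at 1.02 and 1.09, and not within the coculture, at 0.17 (-0.20 to 0.55) and 0.39 (0.06 to 0.73). PSMD8 had 126, 85.9, 101 and 130 CPM, lower in HS-5 in monoculture by 0.32 and higher within the coculture at 0.59 (0.29 to 0.92). PSMD11 and PSMD12 passed 1.5-fold in no comparison, with differences between the lines of 0.33 and 0.19 and of 0.49 and 0.24.

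The activators cap the core in place of the base and lid. PSME1 and PSME2, partners in the interferon-induced activator, differed in their pattern. PSME1 had 272, 249, 150 and 202 CPM and ratios of HS-5 over MM.1S of -0.86 (-0.97 to -0.75) and -0.31 (-0.51 to -0.10). The first of these was -0.17 with the length trend removed. PSME2 had 200, 447, 294 and 447 CPM, with the coculture groups at the same level and ratios of 0.55 and 0.00 (-0.14 to 0.15). PSME3, the nuclear activator of the same family, had 70.0, 118, 105 and 96.7 CPM and ratios of 0.57 and -0.29 (-0.59 to 0.01). PSME4, a nuclear single-chain activator, had 26.3, 78.4, 86.3 and 57.2 CPM: it was higher in HS-5 in monoculture by 1.68 (1.5 to 1.93), and within the coculture the ratio was -0.45 (-0.83 to -0.07).

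The assembly chaperones of the core held the genes with the clearest excess in MM.1S. PSMG4 had 198 CPM in MM.1S monoculture, 109 in cocultured MM.1S cells, 25.9 in HS-5 monoculture and 41.9 in cocultured HS-5 cells. Both MM.1S groups stood above both HS-5 groups, with ratios of HS-5 over MM.1S of -2.88 (-3.17 to -2.70) and -1.35 (-1.75 to -1.0). PSMG2, which pairs with PSMG1 to build the alpha ring, had 105, 89.7, 33.7 and 43.1 CPM and ratios of -1.61 (-1.86 to -1.42) and -1.04 (-1.45 to -0.67). Its partner PSMG1 passed 1.5-fold in no comparison, at 0.29 and 0.48. PSMG3, the partner of PSMG4, had 71.2, 88.9, 108 and 78.6 CPM, with ratios of 0.59 (0.44 to 0.75) and -0.18 (-0.52 to 0.16). So in each chaperone pair 1 gene was lower in HS-5 past 1.5-fold in both libraries and its partner in neither. PSMG4 (chromosome 6, 3231403 to 3303373, plus strand, GENCODE release 29) shares 174 exon bases with TUBB2B on the other strand, whose levels were 98.9, 244, 0.814 and 2.42 CPM in the same order, and 1388 with SLC22A23 (19.2, 41.4, 8.30 and 12.9 CPM). The part of shared reads in the PSMG4 levels was not tested. In all, 19 of the 45 genes share exon bases with another gene, 17 of them on the opposite strand.

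POMP, which matures the core late in its assembly, had 256 CPM in MM.1S monoculture, 421 in cocultured MM.1S cells, 384 in HS-5 monoculture and 688 in cocultured HS-5 cells. The lines differed by 0.59 (0.51 to 0.67) in monoculture and 0.71 (0.57 to 0.85) within the coculture, and the first of these went to -0.01 when every cell had the same weight. Of the chaperones of the base, PSMD9 had 77.5, 69.3, 109 and 114 CPM and ratios of 0.49 and 0.71. PSMD10, also known as gankyrin, had 124, 50.5, 61.9 and 84.2 CPM: HS-5 was lower in monoculture by 0.99 (-1.17 to -0.83) and higher within the coculture at 0.73 (0.33 to 1.16). The monoculture ratio was -0.14 with the length trend removed. PSMD5 passed 1.5-fold in no comparison, at -0.11 and -0.17.

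The second question was what changed in each line within 4 h of coculture. These comparisons share libraries with those of the lines and are therefore given by their own values only. In MM.1S cells, 10 of 41 genes were higher in coculture, where 33.5% of all 7836 genes were, and 2 were lower, where 14.0% of all genes were. The median log2 ratio was 0.36 beside 0.24 for all genes, or 0.12 relative to it. With the trend on transcript length removed, 21 were higher against 31.4% and the relative median was 0.37. In HS-5 cells, 6 of 42 were higher against a background of 7.84%, and 2 were lower against 9.97%. The median there was 0.23 beside -0.04 for all 8815 genes, or 0.26 relative to it, and with the length trend removed 2 were higher against 4.85% and the relative median was 0.13.

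The median depth fell from 2201 UMIs per cell in MM.1S monoculture to 669.5 in cocultured MM.1S cells, and was 971.5 and 957 in HS-5. Log2 ratios followed transcript length over all genes, with Spearman's rho of 0.323 in MM.1S and -0.326 in HS-5 (genes of 1 library pair are not independent), and the proteasome transcripts are short, with a median of 1464 bases beside 2514 for all genes in the HS-5 comparison. Transcripts of at most 1570 bases, the shortest 25% of all genes, include those of 27 of the 42 proteasome genes there. In HS-5 these short genes had a median of 0.21, close to the 0.23 of the proteasome genes. In MM.1S the corresponding short genes had a median of -0.13 beside their 0.36. Between the lines rho was 0.305 in monoculture and 0.0571 within the coculture, and the shortest 25% had medians of -0.08 in monoculture and 0.09 within the coculture, beside 0.59 and 0.56 for the proteasome genes.

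**Figure D3:**
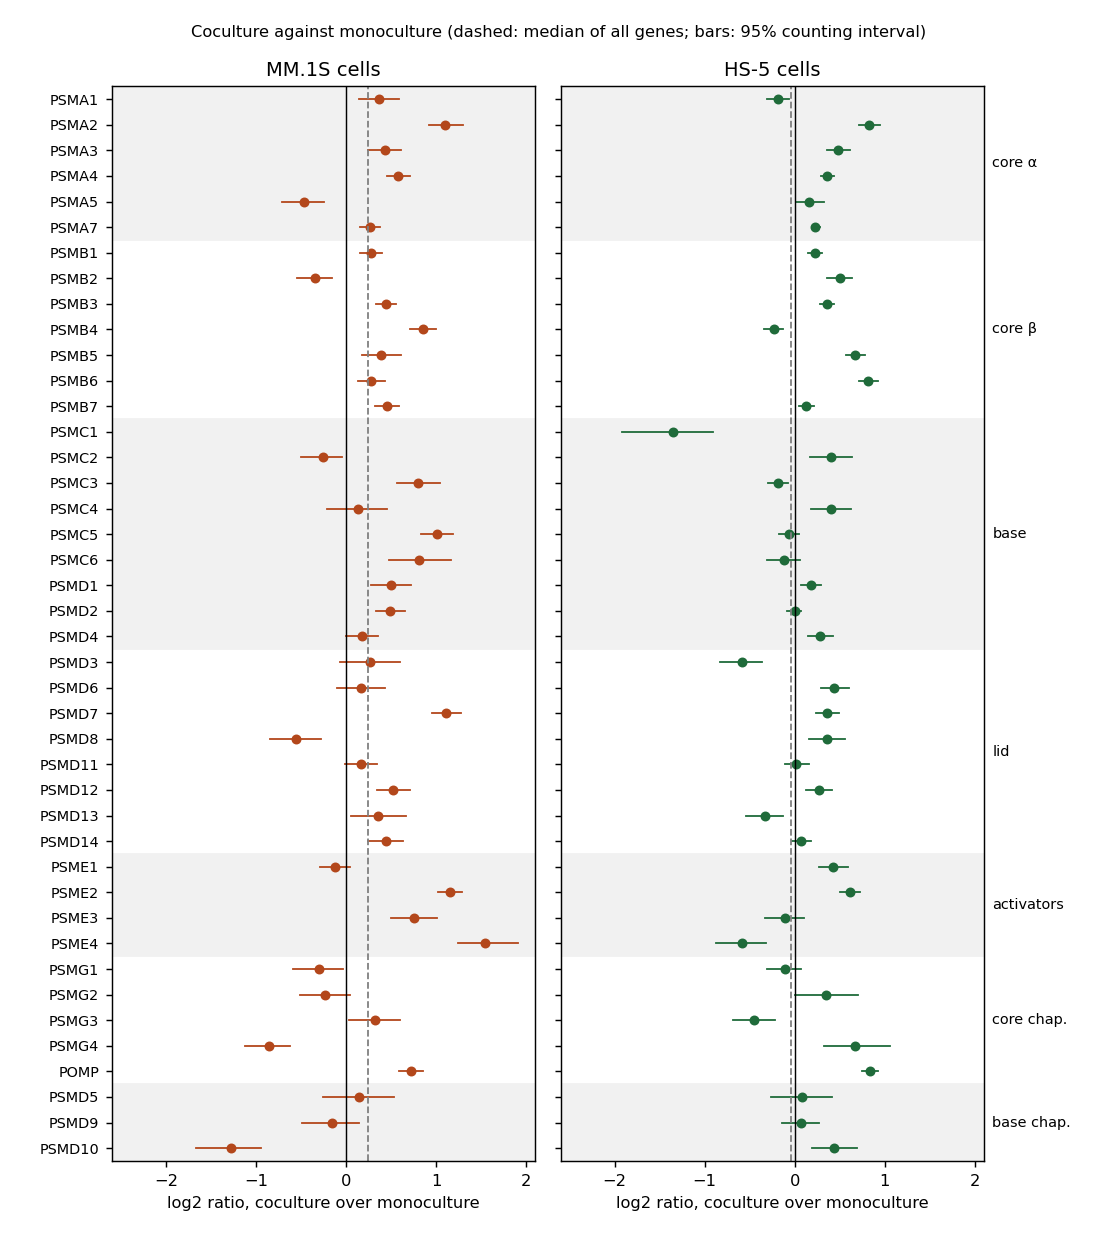
Each row is a gene and the horizontal axis its log2 ratio of coculture over monoculture, for MM.1S cells on the left and HS-5 cells on the right, with 95% counting intervals; the dashed line is the median of all genes, 0.24 and -0.04. PSME4, PSME2, PSMD7 and PSMA2 lie farthest to the right in MM.1S and PSMD10 farthest to the left, while in HS-5 POMP, PSMA2 and PSMB6 lie farthest to the right. PSMC1 is drawn for HS-5 alone.

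In MM.1S cells the activators were the subcomplex with the largest summed ratio of coculture over monoculture. Their level was 568 CPM (554 to 583) in monoculture and 893 CPM (843 to 945) in coculture, 1.57-fold. PSME4 had the largest ratio of the list, at 1.54 (1.24 to 1.91) on the log2 scale, from 274 UMIs in monoculture and 104 in coculture. PSME2 followed at 1.15 (1.02 to 1.29), and PSME3 stood at 0.75 (0.50 to 1.01). PSME1, the partner of PSME2, did not share this, at -0.12 (-0.29 to 0.04). The 2 pseudogene symbols of PSME2 held 75 and 39 UMIs beside its 2088 and 593, or 7.19 and 29.4 CPM.

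The alpha ring, beta ring, base and lid of MM.1S cells were 1.31-, 1.28-, 1.36- and 1.31-fold higher in coculture as sums, close to each other. By gene, the ratios past 1.5-fold were those of PSMD7 at 1.11 (0.95 to 1.28), PSMA2 at 1.10 (0.92 to 1.30), PSMC5 at 1.01 (0.83 to 1.19), PSMB4 at 0.85 (0.71 to 1.0), PSMC6 at 0.81 (0.48 to 1.17) and PSMC3 at 0.80 (0.57 to 1.04). These 6 come from each of the 4 subcomplexes, with 3 of them ATPases of the base. PSMD8 at -0.55, PSMA5 at -0.47 and PSMB2 at -0.34 lay on the other side of 0 without passing 1.5-fold. The catalytic PSMB5, PSMB6 and PSMB7 stood at 0.39, 0.28 and 0.45.

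The chaperones of MM.1S cells took both directions. POMP was higher in coculture at 0.72 (0.59 to 0.85). PSMG4 was lower at -0.86 (-1.12 to -0.62), and PSMD10 was lower at -1.28 (-1.67 to -0.94), from 124 to 50.5 CPM. As a sum the chaperones of the base were 0.686-fold their monoculture level, the only subcomplex of either line below 1.

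In HS-5 cells the genes higher in coculture were POMP at 0.84 (0.75 to 0.93), PSMA2 at 0.83 (0.71 to 0.95), PSMB6 at 0.81 (0.71 to 0.93), PSMB5 at 0.67 (0.57 to 0.78), PSMG4 at 0.67 (0.32 to 1.06) and PSME2 at 0.61 (0.50 to 0.72). They hold 2 of the 3 catalytic subunits and the factor that matures them. PSMB7 stood at 0.13 (0.05 to 0.21). With the trend on transcript length removed, 2 genes were higher in place of 6, so most of these calls were not kept. The genes lower in coculture were PSMC1 at -1.35, whose counts are uncertain as said above, and PSMD3 at -0.59 (-0.83 to -0.36), just past the threshold. PSME4 at -0.58 (-0.87 to -0.32) lay just short of it.

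As sums, the chaperones of the core of HS-5 cells were 1.42-fold higher in coculture, the activators 1.27-fold, the beta ring 1.23-fold and the alpha ring 1.22-fold. The base did not differ beyond counting error, at 2547 CPM (2507 to 2587) in monoculture and 2585 CPM (2522 to 2649) in coculture. The lid stood at 1.10-fold and the chaperones of the base at 1.14-fold. Within the base PSMD2 was at 858 and 856 CPM, while PSMC2 and PSMC4 were both at 0.40 and PSMC3 at -0.19.

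Side by side, PSMA2, PSME2 and POMP were past 1.5-fold higher in coculture in both lines, and PSMG4 was lower in MM.1S and higher in HS-5. Both ratios draw on the same coculture library. With the trend on transcript length removed, 2 genes were higher in HS-5, so PSMA2, PSME2 and POMP did not all keep their call there. Of all genes, 33.5% were higher in MM.1S and 7.84% in HS-5, and the share higher in both lines was not computed. The immunoproteasome subunits as a sum were 1.44-fold higher in MM.1S and 1.63-fold higher in HS-5, with PSMB9 at 0.61 and 1.21, PSMB10 at 1.44 and 0.80 and PSMB8 at 0.04 and 0.30 on the log2 scale. By the line-specific genes, free RNA of the other line made up 1.71% of UMIs in the coculture's MM.1S cells and 0.786% in its HS-5 cells, and with it subtracted each of the 42 calls that use coculture cells was kept.

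Among single cells the proteasome genes formed a continuous range in each group, and the groups overlapped. With each cell thinned to 1000 UMIs, the mean number of proteasome UMIs per cell was 6.47 ± 3.10 (SD over 3870 cells) in MM.1S monoculture, 9.02 ± 3.34 (378 cells) in cocultured MM.1S cells, 11.7 ± 3.99 (1802 cells) in HS-5 monoculture and 14.4 ± 4.72 (1001 cells) in cocultured HS-5 cells. Cells with fewer UMIs were left out, 77, 1262, 1930 and 1105 of them. The variance over the mean, which is near 1 for counting noise alone, was 1.49, 1.24, 1.36 and 1.54. At 500 UMIs per cell the means had the same order, 3.26, 4.26, 5.71 and 7.15, with 3947, 1197, 3515 and 1806 cells. Unthinned, the member UMIs of whole groups give the summed levels above.

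**Figure D4:**
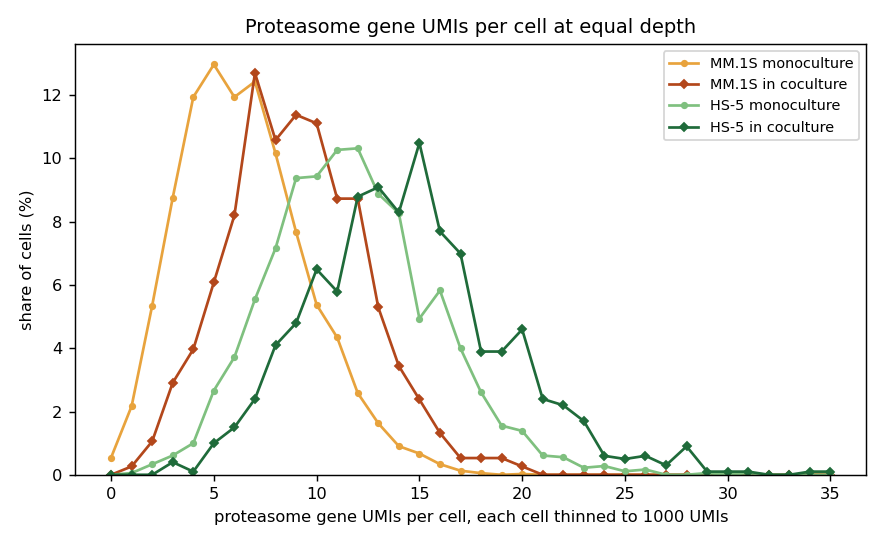
The horizontal axis is the number of proteasome gene UMIs in a cell thinned to 1000 UMIs and the vertical axis the share of a group's cells in %. The 4 distributions each have 1 broad peak and shift to the right in the order of their medians, 6, 9, 11 and 14 UMIs, with wide overlap between neighbours.

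Cells were also split by depth, a step added after the values were seen, into 5 equal groups per line and condition. In MM.1S monoculture the summed level rose with depth in each step, from 5698 CPM (5548 to 5851) in the shallowest cells, with a median of 1225 UMIs, to 7465 CPM (7381 to 7549) in the deepest, with a median of 4449. In HS-5 monoculture the 4 shallower groups lay between 10840 and 11470 CPM and the deepest, with a median of 3303 UMIs, at 13040 CPM (12920 to 13160). In coculture MM.1S cells ran from 8104 CPM (7614 to 8617) to 9370 (9108 to 9637), and HS-5 cells from 13440 (12930 to 13980) to 14590 (14360 to 14830). Each of the 5 HS-5 groups was above each MM.1S group in the same culture.

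**Figure D5:**
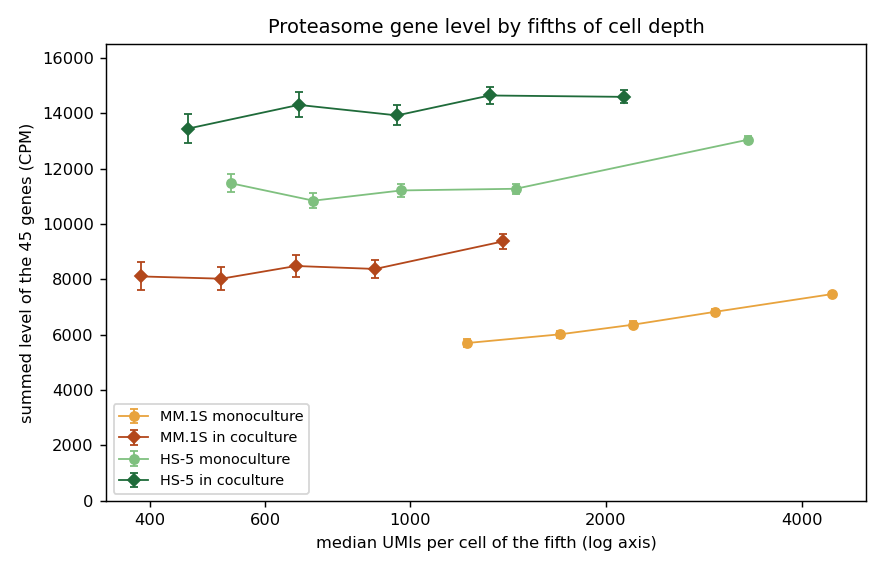
The horizontal axis is the median number of UMIs per cell in each of 5 equal depth groups, on a log scale, and the vertical axis the summed level of the 45 genes in CPM from 0, with exact Poisson 95% intervals. The 4 lines do not cross; the steepest is MM.1S monoculture, from 5698 to 7465 CPM.

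By gene, the deepest HS-5 monoculture cells had widely different levels from the shallowest for some genes. PSMG4 had 35.9 CPM in the deepest and 10.3 in the shallowest, PSMC2 86.1 and 28.2, POMP 530 and 177, PSMA3 294 and 126, and PSMD10 72.2 and 33.3. In all, 14 of 42 genes were past 1.5-fold higher in the deepest cells, where 19.2% of all 8915 genes were, and 1, PSMC1, was lower. PSMA7 at 1784 and 1837 CPM and PSMD2 at 850 and 776 CPM were close to level. The part of depth in the ratios between the lines was not tested beyond the thinned values.

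Of 30 other genes of the pathway, 29 could be compared in each comparison. Between the lines 17 were higher in HS-5 in monoculture and 6 lower, against the backgrounds above, and 9 and 6 within the coculture. In MM.1S cells, 14 were higher in coculture and 3 lower, where 33.5 and 14.0% of all genes were. In HS-5 cells, 3 were higher in coculture and none lower, where 7.84 and 9.97% of all genes were. The medians were 0.67, 0.16, 0.40 and 0.04 beside 0.56, 0.17, 0.24 and -0.04 for all genes, so each stayed within 0.16 of the median of all genes.

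Of 5 regulators of proteasome transcription, 4 were higher in HS-5 monoculture and 1, NGLY1, was lower, where 49.5 and 21.8% of all genes were. NFE2L1, the factor that raises proteasome genes when the proteasome is blocked, had 54.0 CPM in MM.1S monoculture, 69.3 in cocultured MM.1S cells, 148 in HS-5 monoculture and 119 in cocultured HS-5 cells, with ratios between the lines of 1.44 and 0.77. NFE2L2, which controls oxidative stress genes, had 60.2, 142, 304 and 284 CPM and ratios of 2.32 and 0.99. MAFG, a partner of both, had 22.9, 92.7, 96.2 and 67.7 CPM. DDI2, the protease that activates NFE2L1, had 20.3, 56.5, 31.1 and 38.7 CPM, and NGLY1, which removes its sugars, 47.0, 38.4, 22.0 and 22.2. In MM.1S cells MAFG, DDI2 and NFE2L2, 3 of the 5, were higher in coculture at 1.97, 1.43 and 1.23, where 33.5% of all genes were. NFE2L1 stood at 0.36 (0.03 to 0.68). In this comparison the longest 25% of all genes had a median of 0.575. MAFG, DDI2, NFE2L2 and NFE2L1 have transcripts of 3391.5, 10625, 2651 and 4390 bases, beside a median of 2354 for all genes. The part of length was not tested for these regulators.

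Of 12 further parts and regulators, 5 were higher in HS-5 monoculture and 4 lower, beside the same backgrounds. SEM1, a small lid protein, had 637, 831, 318 and 528 CPM in the order above. UCHL5, a deubiquitinase of the cap, had 249, 306, 98 and 128, and USP14, another one, had 150, 254, 110 and 105. TXNL1, a thioredoxin-like protein bound to the cap, had 172, 186, 48.8 and 76.6. PAAF1, a further chaperone of the base, had 68.2, 30.1, 14.2 and 20.2 CPM, and its ratio in MM.1S cells of -1.15 in coculture over monoculture was in the direction of PSMD10. Genes higher in HS-5 monoculture were ADRM1, a ubiquitin receptor, at 49.5, 63.3, 136 and 149 CPM, KIAA0368, an adaptor of the proteasome, at 27.5, 85.9, 124 and 89.9, and ZFAND5 at 28.5, 64.1, 97.7 and 91.1. UBLCP1, a phosphatase, had 41.0, 64.8, 66.1 and 69.7 CPM, the ligase UBE3C 21.8, 73.1, 33.9 and 33.9, and AKIRIN2, which takes part in bringing proteasomes into the nucleus, 29.5, 15.1, 37.0 and 42.7.

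Of the ubiquitin genes, UBB differed most, with 98.4 CPM in MM.1S monoculture, 305 in cocultured MM.1S cells, 618 in HS-5 monoculture and 1414 in cocultured HS-5 cells. It was past 1.5-fold in all 4 comparisons, at 2.64 and 2.21 between the lines and 1.62 and 1.19 in coculture over monoculture. RPS27A, which encodes ubiquitin fused to a ribosomal protein, had 2585, 1600, 1094 and 1295 CPM. VCP, the ATPase that extracts ubiquitin-tagged proteins, had 108, 259, 407 and 393 CPM, and its cofactors NPLOC4 and UFD1 had 11.4, 33.2, 49.2 and 37.1 and 34.6, 33.9, 155 and 207. The activating enzyme UBA1 had 41.4, 78.4, 91.0 and 90.3 CPM. The carrier RAD23B had 53.4, 126, 178 and 183 CPM, and UBQLN1 and UBQLN2 had 47.1, 62.6, 84.8 and 74.5 and 18.4, 33.9, 46.2 and 31.4. Each of these was past 1.5-fold higher in HS-5 monoculture than in MM.1S monoculture except RPS27A, which was lower at -1.24.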

How the data were processed

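For 3 Drop-seq libraries, the authors deposited whole-number UMI counts by gene and barcode, not normalized. The submitters' processing notes name Cell Ranger 3.0.2, UMI-tools 1.0.0, STAR 2.5.3a, featureCounts 1.6.4, SAMtools 1.9 and GRCh38, without their order, and the annotation is not given in the sources used here. The paper's methods name Seurat for the authors' own analyses.

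Cells with at least 200 genes were kept. Coculture cells were assigned by their share of line-specific UMIs (MM.1S under 0.2, HS-5 over 0.8, at least 5 such UMIs; line-specific genes have at least 50 CPM and a 50-fold difference, with counts under 3 set to 3), and cells between were left out. UMIs were summed per group and scaled to CPM; 3 counts are worth 0.288, 2.26, 0.488 and 1.21 CPM in MM.1S monoculture, MM.1S in coculture, HS-5 monoculture and HS-5 in coculture. Log2 ratios have a pseudocount of 1 CPM and their intervals are exact and conditional on the summed counts. Conditions have 1 library each, so no p-values were computed, and intervals cover counting error only. Transcript lengths (the median over a gene's basic transcripts), coordinates and overlaps come from GENCODE 29, and promoter windows from RefSeq (GRCh38.p14). Programs were numpy 2.4.6, scipy 1.17.1, pandas 2.3.3, statsmodels 0.14.6 and matplotlib 3.10.9, and the steps were tested on simulated data.

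The members and gene lists were chosen with earlier results of these data known. Levels are printed for members past 1.5-fold in any comparison, the 3 highest and 3 lowest of each comparison, PSMB5, PSMB6, PSMB7, PSMD14, POMP, PSME1 to PSME4, other pathway genes past 1.5-fold in any comparison, NFE2L1, NFE2L2 and the immunoproteasome subunits. Some other pathway genes that this rule picks are not reported here. Genes named for their change with cell depth were chosen after their values were seen. Alternatives covered the cells kept, scaling, weight of cells, depth, pseudocount, minimum level, transcript length, the assignment of cells and free RNA.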

Additional observations from a re-analysis of the deposited data

Results flagged for a closer look

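Of 41 proteasome genes compared in both lines, 12 had coculture changes whose counting intervals lie on opposite sides of 0 in MM.1S and HS-5 (29.3%, beside 23.2% of 6756 genes in all). Each condition is 1 library, so the difference between the lines was not tested. Values are the log2 ratio of coculture over monoculture in MM.1S minus that in HS-5.

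The difference was positive for 6 genes: PSME4 at 2.13 (1.54 and -0.58), PSMB4 at 1.09 (0.85 and -0.23), PSMC3 at 0.99 (0.80 and -0.19), PSMG3 at 0.77 (0.32 and -0.45), PSMD13 at 0.70 (0.36 and -0.33) and PSMA1 at 0.55 (0.37 and -0.18). They include a nuclear activator, an ATPase of the base, a chaperone of the core and subunits of both core rings and of the lid.

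It was negative for the other 6: PSMD10 at -1.72 (-1.28 and 0.44), PSMG4 at -1.53 (-0.86 and 0.67), PSMD8 at -0.91 (-0.55 and 0.36), PSMB2 at -0.84 (-0.34 and 0.50), PSMC2 at -0.67 (-0.26 and 0.40) and PSMA5 at -0.63 (-0.47 and 0.16). The most negative values belong to assembly chaperones, PSMD10 of the base and PSMG4 of the core. The others are an ATPase of the base and subunits of both core rings and of the lid. Over all genes these coculture ratios followed transcript length, with Spearman's rho of 0.323 in MM.1S and -0.326 in HS-5. Transcript lengths are 7099 bases for PSME4, 779 for PSMD10 and 775 for PSMG4. PSMB4, with a positive value, has 964 and PSMB2, with a negative one, 3459. Ratios of each line were recomputed with the length trend removed, as given below. The differences between the lines were not, so the part of length in them was not tested.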

How the results depend on the processing

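Each condition is 1 library, so no library could be left out. No paired analysis was possible because each condition has 1 sample. Over the alternatives the median log2 ratio ran from 0.32 to 1.15 for HS-5 over MM.1S in monoculture, 0.47 to 0.59 within the coculture, 0.14 to 0.60 for coculture over monoculture in MM.1S and 0.09 to 0.35 in HS-5; relative to all genes it stayed above 0 in each alternative, at 0.01 to 0.58, 0.33 to 0.45, 0.11 to 0.50 and 0.13 to 0.36. For the monocultures, median-of-ratios scaling gave 0.40, totals without mitochondrial and ribosomal protein genes 0.32 and removal of the length trend 1.15. For MM.1S in coculture, median-of-ratios scaling gave a median of 0.14 and removal of the length trend 0.60, with 22 genes past 1.5-fold in place of 12. For HS-5 in coculture, 8 genes became 14 with equal weight per cell, 13 with cells thinned to 500 UMIs and 4 with the length trend removed; the cause was not tested. Of 69 single-gene calls under 811 alternative values, 772 were kept, 37 fell short of 1.5-fold and 2 reversed: POMP for HS-5 over MM.1S in monoculture, at -0.01 with equal weight per cell and -0.05 with thinned cells. POMP was 177 CPM in the shallowest HS-5 monoculture cells and 530 in the deepest, which weigh most in a sum. PSMD3 in HS-5 in coculture, PSMG3 in monoculture and PSMD8 within the coculture lie near the threshold and lost their calls most often. With the length trend removed, PSMD10 and PSME1 between the monocultures also lost theirs, at -0.14 and -0.17. PSMA8 and PSMB11 have too few UMIs to compare at this depth.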
